A study of Mus musculus with 23 samples.

Results

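The 10 genes described here encode transcription factors that divide the early brain into regions, and their transcript levels were followed in whole mouse embryos that differed in p53 genotype and in bath temperature. They were chosen by name: a probe belongs to the set where the probe-to-gene table gives it the symbol Otx2, Rax, Six3, Hesx1, Lhx2, Pax6, Pax2, En1, Gbx2 or Egr2. The choice was made with earlier results of these data known. Each of the 10 genes has 1 probe, out of 18069 genes named on the array. Of the 10, 9 could be tested, among 12651 tested genes, and Gbx2 could not, because its cells are empty on 6 control arrays.

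Heterozygous p53 parents were crossed, and their embryos stood on day 8.5 for 10 minutes in a water bath at 43 °C (heat) or 38 °C (control). They were genotyped and pooled by genotype and bath, with 3 to 7 embryos to a pool, and the RNA of each pool was measured on a 1-colour array. The groups are null heat (p53 -/-, n = 3 pools), null control (p53 -/-, n = 4), heterozygous heat and heterozygous control (p53 +/-, n = 4 each), and wildtype heat and wildtype control (p53 +/+, n = 4 each). The labels give neither the p53 allele nor the mouse strain, and the control pools stood in a bath too. The labels call the pools biological replicates without naming litters or cages, so a p-value weighs a difference against the spread of these pools and nothing wider. A pool holds all tissues of several embryos, so fewer cells of a type and less RNA per cell cannot be told apart.

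As background, the neural plate of the mouse is divided from front to back by transcription factors that are each made in a limited domain. Otx2 is made in the forebrain and midbrain and is needed for both to form. Gbx2 is made behind it, and mutual repression between these genes places the midbrain-hindbrain boundary, where Pax2 and En1 help to set up a signalling centre. Rax, Six3, Lhx2 and Pax6 act in the eye field and forebrain, and Hesx1 in the anterior forebrain and the pituitary. Egr2, also called Krox20, is made in alternating segments of the hindbrain.

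Intensities are given in relative units after quantile normalization and are compared between pools for 1 gene, never between genes. Differences are limma's log2 differences ± SE. Adjusted p-values are limma's after Benjamini-Hochberg adjustment over 21979 tested probes, and 0.05 is the threshold for a call. Known markers followed the labels: Ccng1, a transcriptional target of p53, was at 1.24 to 3.02 in null heat pools, 6.26 to 7.63 in heterozygous heat pools and 9.42 to 14.2 in wildtype heat pools, and Hspb1, a heat-induced small heat shock protein, was at 63.5 to 95.9 in heat pools against 15.2 to 20.2 in control pools. Hspa1a, the inducible Hsp70, was high in part of the heat pools, at 1.77 to 120 in null, 1.49 to 2.09 in heterozygous and 0.877 to 123 in wildtype heat pools. In control pools it was at 0.666 to 0.947 in null, 0.496 to 0.807 in heterozygous and 0.696 to 1.04 in wildtype. The lowest wildtype heat pool thus lay inside the range of the wildtype control pools. The summed level of 8 pan-neural genes with a value on every array, of 11 listed, was 47.3 to 62.3 over all pools. The authors' columns differ by bath. Each control column has 7576 to 11666 empty cells while the heat columns have none, so the effect of heat cannot be told apart from a difference in how the columns were made.

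Promoters of 3 members are shown because Otx2 and Pax6 were called in opposite directions between null and wildtype control pools and because the Lhx2 pools of those groups did not overlap. The sequences run from 250 bases before to 50 bases after the most upstream start that RefSeq lists, on build GRCm38.p6. The Otx2 window lies on the minus strand at chr14:48667595-48667894, that of Lhx2 on the plus strand at chr2:38339031-38339330 and that of Pax6 on the plus strand at chr2:105668646-105668945. RefSeq lists 4 starts for Otx2, 2 for Lhx2 and 2 for Pax6. Capitals mark TAATTA, a core that many homeodomain proteins bind, and GAANNTTC, the core of the heat shock element.
Otx2: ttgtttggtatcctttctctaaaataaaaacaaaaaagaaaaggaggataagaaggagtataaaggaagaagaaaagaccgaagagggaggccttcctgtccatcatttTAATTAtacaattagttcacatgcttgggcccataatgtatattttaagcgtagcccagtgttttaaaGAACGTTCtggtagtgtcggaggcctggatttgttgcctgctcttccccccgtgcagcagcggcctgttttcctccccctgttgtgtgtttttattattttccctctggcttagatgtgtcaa
Lhx2: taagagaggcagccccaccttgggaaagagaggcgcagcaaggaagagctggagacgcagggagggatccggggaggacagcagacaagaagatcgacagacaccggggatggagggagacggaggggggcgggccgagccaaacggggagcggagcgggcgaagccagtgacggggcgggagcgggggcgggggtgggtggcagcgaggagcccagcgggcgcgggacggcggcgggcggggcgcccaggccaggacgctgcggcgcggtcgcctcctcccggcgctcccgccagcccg
Pax6: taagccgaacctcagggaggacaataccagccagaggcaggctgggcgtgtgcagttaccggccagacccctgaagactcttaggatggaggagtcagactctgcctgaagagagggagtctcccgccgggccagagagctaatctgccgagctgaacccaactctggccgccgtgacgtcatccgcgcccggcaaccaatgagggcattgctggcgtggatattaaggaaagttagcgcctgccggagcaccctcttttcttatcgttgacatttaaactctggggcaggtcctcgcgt
The Otx2 window holds TAATTA with its first base at position -141 from the start, and GAANNTTC at position -73. The windows of Lhx2 and Pax6 hold neither. Both strands were searched, the motifs do not overlap, and over 27025 promoter windows of this length TAATTA stands in 5.32% and GAANNTTC in 7.96%. Windows were read for 9 of the 10 members, and the only other match among them was GAANNTTC in the Hesx1 window at position -106. TAATCC, a core that Otx-class homeodomains bind, stands in 7.15% of all windows and in 0 of these 9, and a half-site of the p53 consensus stands in 8.34% of all windows and in 0 of these 9. The GC content was 41.7% for Otx2, 74.7% for Lhx2 and 58.7% for Pax6, with a median of 52.7% over all windows. A match describes letters, not binding.

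The first question was how the genes depend on p53 without heat. In control pools, Otx2 was lower in null than in wildtype embryos, to 0.518 of the wildtype level, while 2 genes of the eye field and forebrain, Rax and Pax6, were higher, by 1.51-fold and 1.41-fold. These 3 of 9 tested members (33.3%) passed the threshold, 2 higher and 1 lower. Among all tested probes 1838 passed in this comparison, which is 8.36% (3.68% higher, 4.69% lower). At an unadjusted p under 0.05 there were 4 of 9 members, and 26.1% of all probes. The groups did not overlap for 4 members that were higher and 1 that was lower in null pools, and 25.9% of all probes had groups that did not overlap. Because the members were chosen with earlier results of these data known, their shares cannot be tested against those of all probes.

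Otx2 had intensities of 7.75, 7.21, 6.34 and 4.28 in null control pools A to D, against 12.4, 11.4, 12.2 and 12.1 in wildtype control pools A to D. Every null pool was below every wildtype pool, and the wildtype pools lay close together. The means were 6.39 ± 1.53 in null control and 12 ± 0.455 in wildtype control pools (SD, n = 4 each), and the log2 difference was -0.95 ± 0.27, with a 95% interval of -1.51 to -0.39 and a limma adjusted p of 0.034. The heterozygous control pools A and B were at 10.1 and 10.3, and C and D at 6.53 and 6.58. They thus lay below all wildtype pools, with C and D inside the null range and A and B above it. Between heterozygous and wildtype control pools 3.87% of all probes had groups that did not overlap. Heterozygous minus wildtype control was -0.56 ± 0.27 (limma adjusted p = 0.82), and null minus heterozygous control was -0.39 ± 0.27 (limma adjusted p = 0.44). By mean level the 6 groups of Otx2 ran from null control (6.39) over heterozygous control (8.36), null heat (8.71), heterozygous heat (8.91) and wildtype heat (10.4) to wildtype control (12), and in this order each group overlapped the next.

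Pax6, a paired-box factor needed for the eye and for dorsal forebrain, was at 17.4, 19.0, 20.6 and 21.6 in null control pools and at 16.4, 13.1, 12.8 and 13.7 in wildtype control pools. The lowest null pool lay just above the highest wildtype pool. The means were 19.7 ± 1.81 in null and 14 ± 1.67 in wildtype control pools, and the log2 difference was 0.49 ± 0.14 (95% interval 0.21 to 0.78, limma adjusted p = 0.031). The heterozygous control pools, at 16.2, 15.6, 16.6 and 16.0, lay below all null control pools and had a mean of 16.1 ± 0.4. Null minus heterozygous control was 0.28 ± 0.14 (limma adjusted p = 0.28). In that comparison the groups did not overlap for 2 of 9 members, Pax6 and Rax, and for 7.42% of all probes.

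Rax, the homeobox gene needed for the eye field, was at 5.94, 6.23, 6.29 and 6.98 in null control pools and at 3.49, 3.79, 5.54 and 4.21 in wildtype control pools. All null pools lay above all wildtype pools, of which C was the nearest. The means were 6.36 ± 0.437 in null and 4.26 ± 0.906 in wildtype control pools, and the log2 difference was 0.60 ± 0.18 (95% interval 0.23 to 0.97, limma adjusted p = 0.040). The heterozygous control pools were at 2.96, 3.37, 5.20 and 5.06, so A and B lay below every wildtype control pool and C and D among them. Null minus heterozygous control was 0.66 ± 0.18 with groups that did not overlap, and it did not pass after adjustment (unadjusted p = 0.0012, limma adjusted p = 0.15). In that comparison 0.0455% of all probes passed (0.0136% higher, 0.0318% lower), which is 10 probes with 30% of them higher, against 50% of 4 with arrays centred on their medians.

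Lhx2, a LIM homeobox gene needed for eye and cortex, was at 4.32, 4.97, 5.03 and 4.87 in null control pools and at 3.50, 3.13, 3.02 and 3.59 in wildtype control pools. Although the groups did not overlap, the log2 difference of 0.54 ± 0.23 did not pass (limma adjusted p = 0.14). The fit takes its spread from all 6 groups, and the SD of Lhx2 was 0.323 in null control and 0.276 in wildtype control pools but 1.61 in null heat and 1.19 in heterozygous control pools. When the arrays compared were fitted alone, the difference was 0.54 ± 0.09 (limma adjusted p = 0.0013). It also passed with array weights (0.52 ± 0.15, limma adjusted p = 0.012) and under no other alternative run. With the array score given below as a covariate it was 0.04 ± 0.20 (limma adjusted p = 0.97). The heterozygous control pools A and B were at 2.79 and 2.92, below every wildtype control pool, and C and D at 5.30 and 4.26. Pool C was thus above all null control pools. En1, a homeobox gene of the midbrain-hindbrain boundary, was at 2.99, 3.34, 3.32 and 3.45 in null control pools and at 2.87, 2.95, 2.29 and 2.74 in wildtype control pools, again without overlap, and its difference of 0.28 ± 0.14 did not pass (limma adjusted p = 0.21).

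Six3, Hesx1, Pax2 and Egr2 did not pass between null and wildtype control pools. Six3, which holds the anterior forebrain fate, averaged 17.5 ± 1.16 in null and 16.8 ± 1.32 in wildtype control pools, with a difference of 0.06 ± 0.12 and a 95% interval of -0.19 to 0.31. Hesx1 had a difference of -0.27 ± 0.17, Pax2 of -0.02 ± 0.19 and Egr2 of -0.28 ± 0.14. The Egr2 null control pools were at 5.17, 5.18, 5.26 and 5.30, a far narrower range than the 7.17, 7.08, 5.09 and 6.20 of the wildtype control pools. The median over the 9 tested members was 0.06, and it was 0.035 over all named genes tested.

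**Figure D1:**
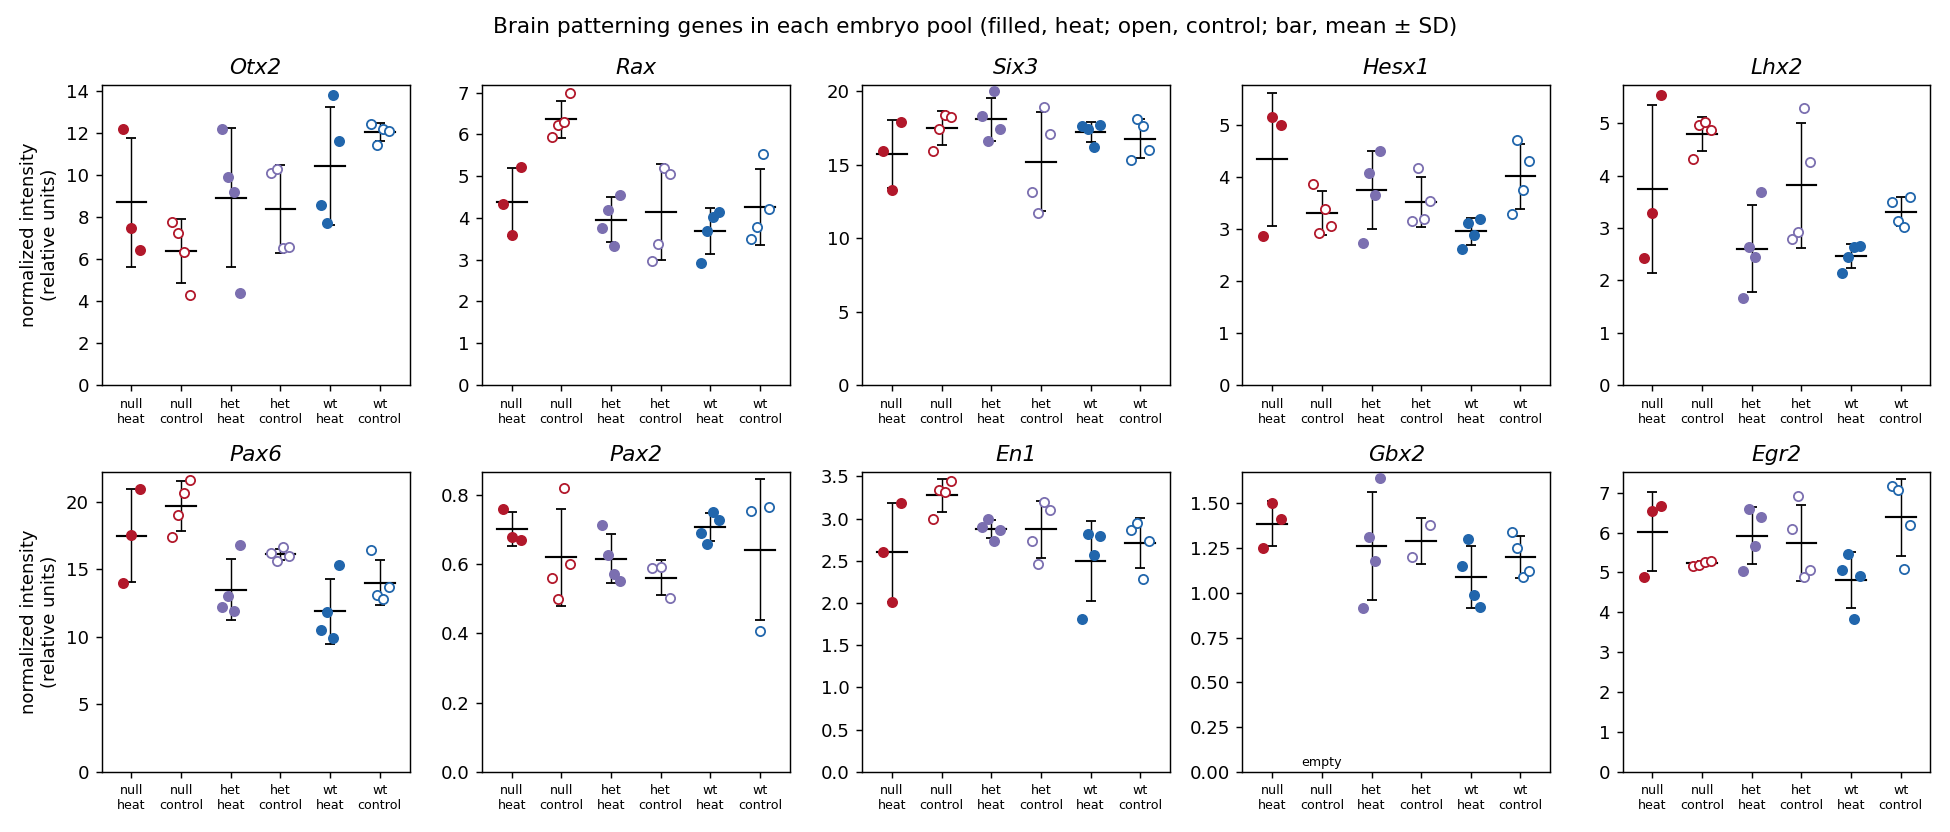
Normalized intensity (vertical axis, relative units, starting at 0) of each of the 10 genes in every pool of the 6 groups (horizontal axis). Points are pools, filled for heat and open for control, and bars give the mean ± SD over pools. Otx2 sits at 4.28 to 7.75 in null control pools, below the 11.4 to 12.4 of wildtype control pools, and Gbx2 has no value in null control pools.

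The 3 calls between null and wildtype control pools depended on single pools. Without null control B, C or D, or without wildtype control B or D, 0 of the 3 passed. Without wildtype control A only Pax6 passed, without wildtype control C only Rax, and without null control A all 3 passed. Over the 23 fits that each left out 1 of all the pools, the Otx2 difference ranged from -1.05 to -0.77, that of Rax from 0.51 to 0.73 and that of Pax6 from 0.45 to 0.57. Over all probes the number of calls in this comparison was 252 without null control B, against 1838 with all pools.

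A property of the arrays moved with these values. Heterozygous control pools A and B differed from C and D across the array, and each array was scored along that difference. The score used the tested probes with a value on every array, without those of the members. It is higher for arrays more like A and B. Null control arrays scored -0.61 to -0.24 and wildtype control arrays 0.07 to 0.43. Heterozygous control A and B scored 0.47 and 0.57, and C and D -0.52 and -0.43. With the score as a covariate, null minus wildtype control was -0.52 ± 0.28 for Otx2 (limma adjusted p = 0.58), 0.16 ± 0.13 for Rax (limma adjusted p = 0.74), 0.37 ± 0.16 for Pax6 (limma adjusted p = 0.45) and 0.04 ± 0.20 for Lhx2 (limma adjusted p = 0.97). Only 12 of all probes passed in that fit. The score and the genotype overlap in the control pools, and their parts in the difference cannot be told apart there.

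**Figure D2:**
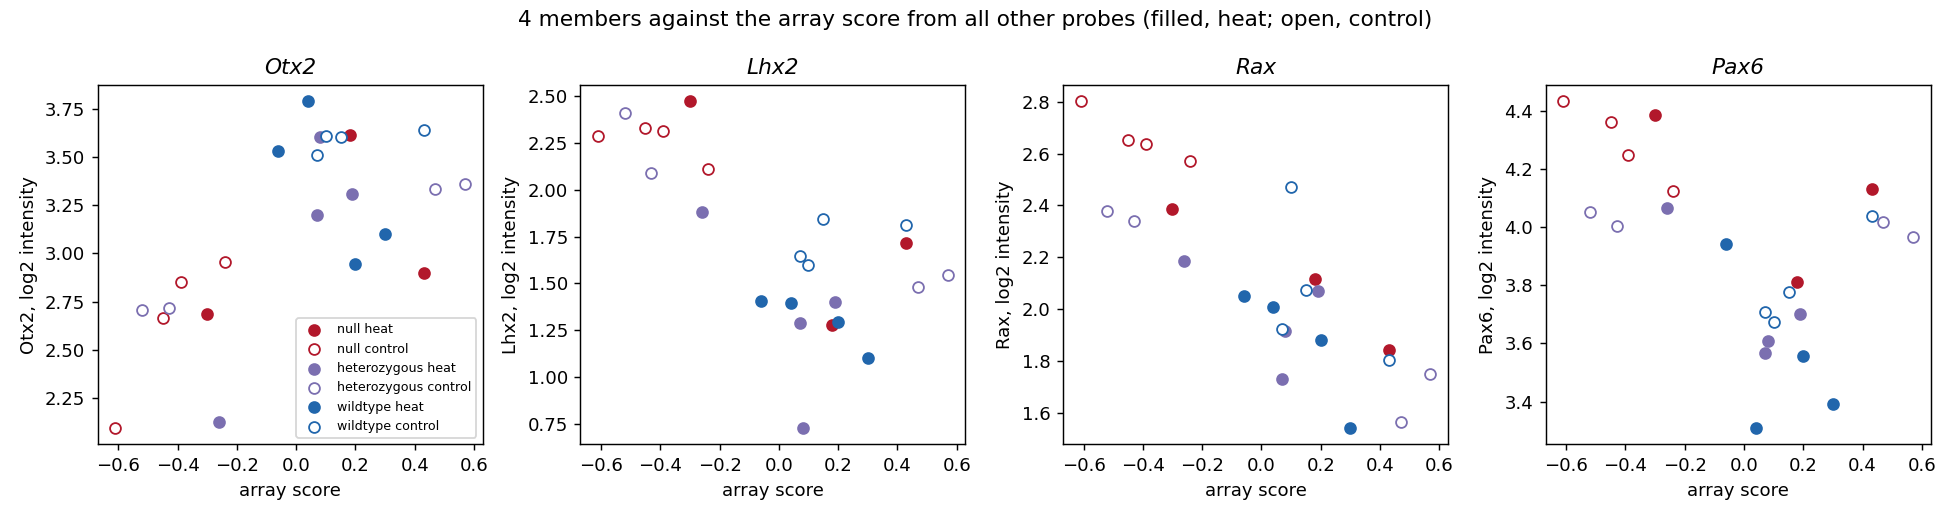
Log2 intensity (vertical axes) of Otx2, Lhx2, Rax and Pax6 against the array score (horizontal axes, no unit) in all 23 pools, filled for heat and open for control, coloured by genotype. Null control arrays lie at scores of -0.61 to -0.24 with heterozygous control C and D, and wildtype control arrays at 0.07 to 0.43.

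Gbx2 had values in only part of the control pools. Its cells are empty in all 4 null control pools and in heterozygous control C and D, the 6 control pools with scores below 0. Its intensities were 1.25, 1.5 and 1.41 in null heat pools, 0.917, 1.31, 1.18 and 1.64 in heterozygous heat pools, 1.2 and 1.38 in heterozygous control A and B, 1.15, 1.30, 0.985 and 0.919 in wildtype heat pools and 1.34, 1.25, 1.09 and 1.12 in wildtype control pools. All measured pools thus lay within a 1.79-fold range. Of all probes, 114 are empty on exactly these 6 control arrays and 71 on exactly the other 6. The files do not say what an empty cell stands for, so no level is given for the null control pools. Fitted on the arrays compared alone, null minus wildtype heat was 0.36 ± 0.15 (limma adjusted p = 0.36) and wildtype heat minus control -0.15 ± 0.13 (limma adjusted p = 0.55).

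The second question was how the genes depend on p53 after heat. Between null and wildtype heat pools 0 of 9 members passed limma's test, with 4 at an unadjusted p under 0.05, and 0.56% of all probes passed (0.255% higher, 0.305% lower), with 20.4% at an unadjusted p under 0.05. Another scaling moves that split of all calls: 45.5% were higher here, against 33.7% with arrays centred on their medians, 88.7% in values as deposited and 17.6% with limma quantile normalization over all cells. Pax6 came nearest. It was at 14.0, 17.5 and 20.9 in null heat pools and at 10.5, 11.8, 9.92 and 15.3 in wildtype heat pools, which overlap through wildtype heat D, and the difference was 0.56 ± 0.15 (unadjusted p = 0.0011, limma adjusted p = 0.086). It passed in values as deposited, at 0.85 ± 0.21 (limma adjusted p = 0.036), and with the highest array value as a covariate, at 0.55 ± 0.15 (limma adjusted p = 0.045). It did not pass with the arrays compared fitted alone (0.56 ± 0.19, limma adjusted p = 0.32) or with array weights (0.58 ± 0.15, limma adjusted p = 0.20). Nor did it under limma quantile normalization over all cells (0.54 ± 0.16, limma adjusted p = 0.42). The 0.56 is close in size to the 0.49 ± 0.14 in control pools, and the difference between the null and wildtype heat responses was 0.07 ± 0.20 (95% interval -0.35 to 0.48).

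Hesx1, a homeobox repressor of the anterior plate, was at 2.87, 5.15 and 5.01 in null heat pools and at 2.62, 3.12, 2.88 and 3.20 in wildtype heat pools. Null heat B and C lay above all wildtype pools and null heat A among them, and the difference was 0.51 ± 0.19 (limma adjusted p = 0.16). Null heat A also departed from B and C in Otx2, at 12.2 against 7.46 and 6.43, and in Egr2, at 4.88 against 6.54 and 6.66. Without null heat A, 2 members passed between null and wildtype heat pools, Hesx1 at 0.79 ± 0.17 (limma adjusted p = 0.023) and Pax6 at 0.71 ± 0.16 (limma adjusted p = 0.023). Over all 21979 tested probes, leaving out 1 pool gave 22 to 1330 calls in this comparison, against 123 with all pools. Without wildtype heat D, Pax6 passed at 0.69 ± 0.14 (limma adjusted p = 0.036). The Pax6 difference was smaller without null heat C (0.42 ± 0.16, limma adjusted p = 0.35) and without wildtype heat C (0.48 ± 0.15, limma adjusted p = 0.22).

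The other members gave no call between null and wildtype heat pools. Otx2 was at 12.2, 7.46 and 6.43 in null heat pools and at 8.56, 7.70, 13.8 and 11.6 in wildtype heat pools, which overlap widely, and its difference was -0.27 ± 0.29 (limma adjusted p = 0.60). Its 95% interval was -0.88 to 0.33. Lhx2 was at 2.43, 3.28 and 5.54 in null heat pools and at 2.15, 2.45, 2.63 and 2.65 in wildtype heat pools, with a difference of 0.52 ± 0.25 (limma adjusted p = 0.24). Egr2 differed by 0.32 ± 0.15, Rax by 0.24 ± 0.19, Six3 by -0.14 ± 0.13, En1 by 0.06 ± 0.15 and Pax2 by -0.01 ± 0.19. The median over the 9 was 0.24, and 0.04 over all named genes tested.

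Heterozygous pools gave no call against wildtype or null pools in either bath. Between heterozygous and wildtype pools 1 of 9 members had an unadjusted p under 0.05 in each bath, Egr2 in heat pools at 0.30 ± 0.14 (limma adjusted p = 0.40) and Otx2 in control pools as given above. Among all probes 0.141% passed in heat pools (0.0364% higher, 0.105% lower) and 0.00455% in control pools. At an unadjusted p under 0.05 there were 11.7% of all probes in heat pools and 5.92% in control pools. Of the calls in heat pools 25.8% were higher, against 17.4% with arrays centred on their medians and 44.4% in values as deposited. Between null and heterozygous pools, 1 of 9 in each bath had an unadjusted p under 0.05, Pax6 in heat pools at 0.37 ± 0.15 (limma adjusted p = 0.92) and Rax in control pools. In heat pools 0.00455% of all probes passed. Between null and heterozygous pools 4.51% of all probes in heat and 18.2% in control pools had an unadjusted p under 0.05.

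The third comparison was heat against control within each genotype. By limma 0 of 9 members passed in null, heterozygous or wildtype pools, with 2 of 9 in each genotype at an unadjusted p under 0.05. Among all probes 5.53% passed in null (2.88% higher, 2.64% lower), 2.31% in heterozygous (0.742% higher, 1.57% lower) and 3.08% in wildtype pools (1.28% higher, 1.79% lower), and 25.9%, 15.7% and 17.8% had an unadjusted p under 0.05. The groups did not overlap for 1 of 9 members in null, 0 in heterozygous and 2 in wildtype pools, all lower in heat. Of all probes, 23.3%, 9.33% and 13.2% had groups that did not overlap. The split of all calls depends on the scaling. In null, heterozygous and wildtype pools 52.2%, 32.1% and 41.7% of the calls were higher, against 36.2%, 27% and 30.6% with arrays centred on their medians, 63.4%, 20.1% and 9.95% in values as deposited, and 99.5% to 99.8% with limma quantile normalization over all cells. The wildtype comparisons of heat and of genotype share the wildtype control arrays, and the null ones the null control arrays.

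In null pools Rax was at 4.33, 3.59 and 5.23 in heat against 5.94, 6.23, 6.29 and 6.98 in control baths, without overlap, and the difference of -0.55 ± 0.19 did not pass (limma adjusted p = 0.084). The same null control pools also stood above those of the other genotypes. En1 in null pools was at 2.60, 2.01 and 3.19 in heat against 2.99, 3.34, 3.32 and 3.45 in control baths, overlapping through heat pool C (-0.36 ± 0.15, limma adjusted p = 0.15). In heterozygous pools Lhx2 was at 1.66, 2.64, 2.45 and 3.68 in heat against 2.79, 2.92, 5.30 and 4.26 in control baths (-0.56 ± 0.23, limma adjusted p = 0.23). Six3 was at 18.3, 16.6, 20.0 and 17.4 in heat against 13.1, 11.7, 18.9 and 17.1 in control baths (0.27 ± 0.12, limma adjusted p = 0.27), where the low control values belong to A and B. Lhx2 had a negative estimate in all 3 genotypes, at -0.44 ± 0.25 in null, -0.56 ± 0.23 in heterozygous and -0.42 ± 0.23 in wildtype pools, and did not pass in any. Pax6 was likewise at -0.18 ± 0.15, -0.27 ± 0.14 and -0.25 ± 0.14.

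In wildtype pools the smallest p belonged to Egr2. It was at 5.06, 5.46, 3.83 and 4.90 in heat against 7.17, 7.08, 5.09 and 6.20 in control baths, with 1 control pool, C, reaching into the heat range (-0.41 ± 0.14, limma adjusted p = 0.11). In null pools it was at 4.88, 6.54 and 6.66 in heat against 5.17, 5.18, 5.26 and 5.30 in control baths. The heat response of null minus wildtype pools was 0.60 ± 0.20 (unadjusted p = 0.0077, limma adjusted p = 0.13). Hesx1 showed the same signs. It was at 2.62, 3.12, 2.88 and 3.20 in wildtype heat against 3.29, 4.72, 3.75 and 4.30 in wildtype control pools, without overlap (-0.43 ± 0.17, limma adjusted p = 0.19), and at 2.87, 5.15 and 5.01 in null heat against 3.87, 2.92, 3.39 and 3.06 in null control pools (0.35 ± 0.19, limma adjusted p = 0.24). Its difference between null and wildtype heat responses was 0.78 ± 0.25 (unadjusted p = 0.0056, limma adjusted p = 0.12). Without null heat A this difference was 1.06 ± 0.23 and passed (limma adjusted p = 0.028), as did null heat minus control at 0.63 ± 0.17 (limma adjusted p = 0.047). Calls over all probes also moved when 1 pool was left out. They ran from 8 to 360 for the null minus wildtype heat response, against 222 with all pools. For null heat minus control they ran from 277 to 1599, against 1215 with all pools.

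Over the 3 differences between heat responses 0 of 9 members passed limma's test. For null minus wildtype 2 of 9 had an unadjusted p under 0.05, and 1.01% of all probes passed (0.332% higher, 0.678% lower), with 22.1% at that unadjusted p. Of these calls 32.9% were higher, against 75.4% in values as deposited. For heterozygous minus wildtype 1 of 9 had one, Egr2 at 0.46 ± 0.20, and 0% of all probes passed, with 6.02% at that unadjusted p. For null minus heterozygous 1 of 9 had one, Six3 at -0.44 ± 0.18 (limma adjusted p = 0.31), and 0.0227% of all probes passed (0.0182% higher, 0.00455% lower), with 14.4% at that unadjusted p. Otx2 had a difference of 0.67 ± 0.40 between the null and wildtype heat responses (95% interval -0.15 to 1.5, limma adjusted p = 0.31), so the gap between null and wildtype pools was not shown to differ between the baths.

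**Figure D3:**
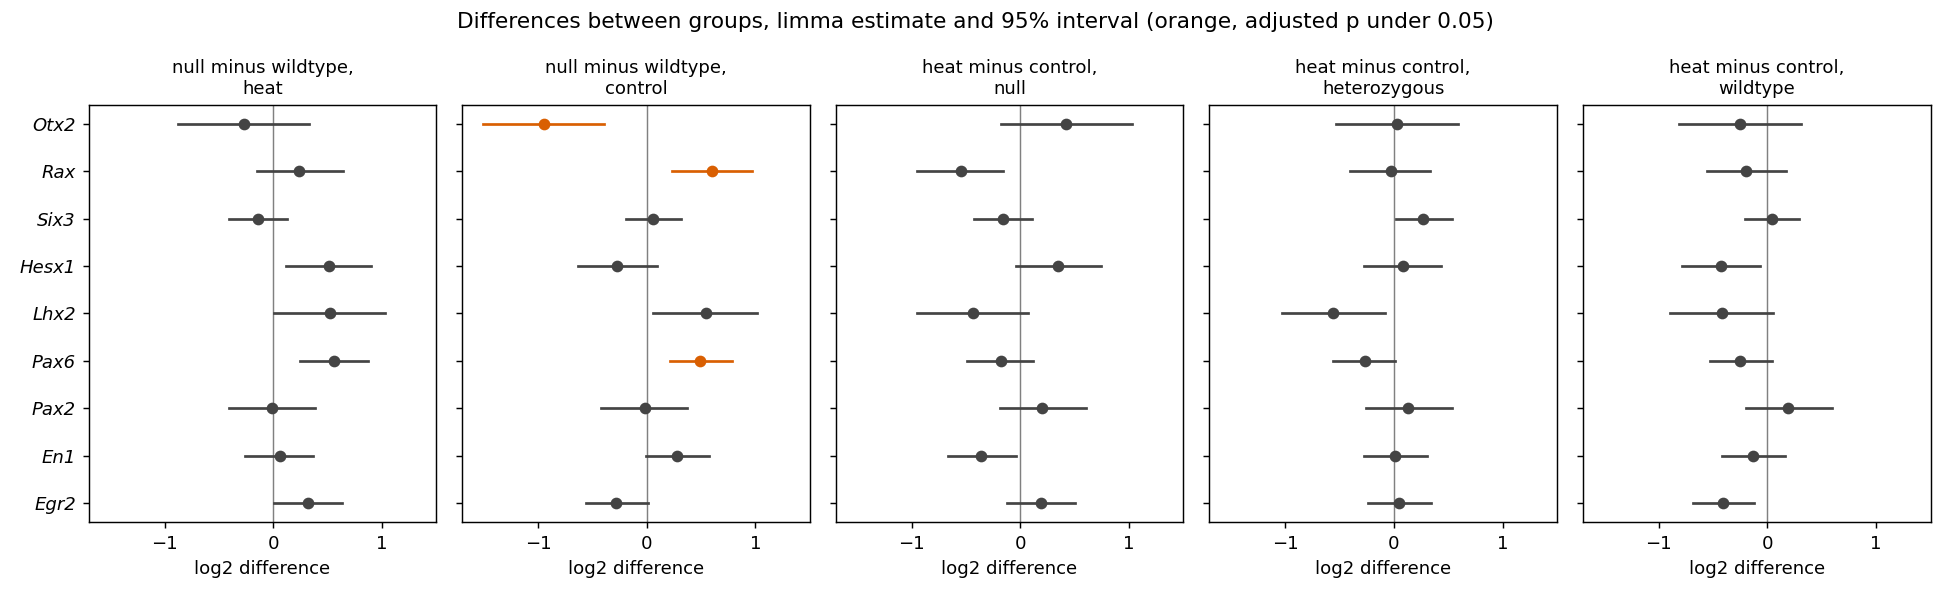
Log2 difference (horizontal axes) of each of the 9 tested genes (vertical axis) in 5 comparisons: null minus wildtype in heat and in control pools, and heat minus control in null, heterozygous and wildtype pools. Points are limma estimates, lines 95% intervals, and orange marks the 3 calls, all in null minus wildtype control (Otx2 -0.95, Rax 0.60, Pax6 0.49).

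Pax2, a paired-box gene made at the boundary, was too dim to follow. Its 21 values were 0.408 to 0.822. Its percentile among all values of an array was 35.6 to 42.9 on heat arrays and 5.02 to 25.3 on control arrays. Empty cells, found only in control columns, enter no percentile. Pax2 thus met the brightness filter for tested probes through heat arrays only, yet it counts as tested in every comparison. Of its values, 1 (wildtype control B) was set to the lower limit of its array, and 2 cells (heterozygous control D and wildtype control C) are empty. No comparison of Pax2 had an unadjusted p under 0.05.

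Otx2 varied widely among heat pools, from 4.37 in heterozygous heat D to 13.8 in wildtype heat C, and other members were set against it over these 11 pools. Gbx2 was low where Otx2 was high: Pearson's r was -0.83 and Spearman's rho -0.77 on log2 intensities (permutation p = 0.0011 and 0.0075, adjusted over 9 relations 0.0099 and 0.034, two-sided, 100000 resamples). The r was -0.73 without the pair of pools farthest from the median of Otx2 and -0.86 after removing genotype means. Egr2 gave r = -0.74 and rho = -0.79 (permutation p = 0.0091 and 0.0054, adjusted 0.032 and 0.034), -0.70 without those pools and -0.75 with genotype means removed. Hesx1 gave r = -0.68 and rho = -0.65 (permutation p = 0.020 and 0.035, adjusted 0.045 and 0.080), -0.65 without those pools and -0.68 with genotype means removed. Pax2 went the other way with r = 0.73 and rho = 0.74 (permutation p = 0.011 and 0.013, adjusted 0.032 and 0.038), with r = 0.86 after removing genotype means but 0.42 without those 2 pools, so the pooled relation rests on them. Pax2 was also dim in all heat pools, at 0.553 to 0.759.

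Lhx2 (r = -0.64, rho = -0.59, permutation p = 0.036 and 0.060, adjusted 0.064 and 0.11) and Pax6 (r = -0.57, rho = -0.52, permutation p = 0.066 and 0.11, adjusted 0.099 and 0.16) had negative values that did not pass. Rax (r = -0.22), Six3 (r = -0.01) and En1 (r = -0.04) were near 0, with adjusted permutation p of 0.67, 0.99 and 0.99. Each pool gives all of these genes from 1 array, so the points share their hybridisation. How many of all probes follow Otx2 as closely over the heat pools was not computed. The relations are therefore not shown to be particular to these genes. Arrays with negative scores among heat pools were null heat C (-0.30), heterozygous heat D (-0.26) and wildtype heat D (-0.06). The first of these had Otx2 at 6.43 and heterozygous heat D at 4.37, the lowest of the heat pools, and wildtype heat D had 11.6. Over control pools no correlation is given, because Otx2 falls into separate clusters there, at 10.1 to 12.4 in 6 pools and 4.28 to 7.75 in the other 6.

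**Figure D4:**
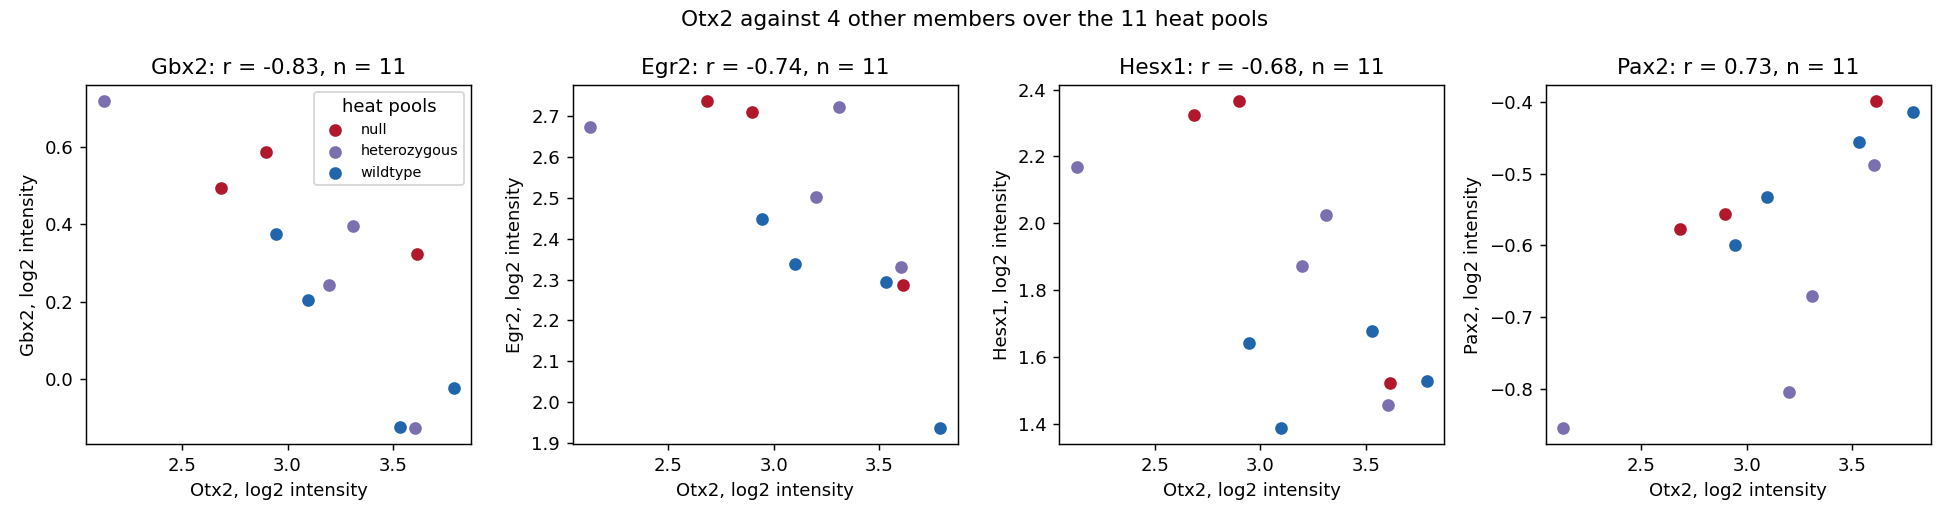
Log2 intensity of Gbx2, Egr2, Hesx1 and Pax2 (vertical axes) against that of Otx2 (horizontal axes) in the 11 heat pools, coloured by genotype. Gbx2, Egr2 and Hesx1 fall along Otx2 (r = -0.83, -0.74 and -0.68), and the Pax2 relation (r = 0.73) rests on the pools at both ends. Pax2 was dim in all of these pools.

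The named genes whose log2 intensity followed a member most closely over pools were found by Pearson's r. For Otx2 these were the hindbrain gene Hoxa2 (0.95), Dlgap4 (0.93) and Zfp24 (0.91), over 23 pools. Hoxa2 is made behind the Otx2 domain, in the hindbrain. For Lhx2 they were Nmnat2 (0.96), Ift122 (0.94) and Xrcc1 (0.94), for Rax Srcap (0.90), Zfp821 (0.88) and Pex6 (0.88), and for Pax6 Glb1 (0.92), Pigs (0.91) and Fam220a (0.91). Six3 was nearest to Odf3l1 (0.92), Egr2 to Zfp979 (0.87), Hesx1 to Igsf21 (0.82) and En1 to Ino80 (0.81), and Pax2 reached 0.65 with Apex1 over 21 pools. None of these nearest genes is one of the 10, since members were left out of the search. These r values are the highest found among all named genes searched, over heat and control pools together. The separate clusters of Otx2 in control pools therefore enter its values. The part of group differences and of the array score in these r values was not tested.

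Other genes of brain patterning were taken from lists. Of 17 further forebrain and eye genes 13 were tested. Between null and wildtype control pools 1 of 13 was higher and 0 lower, with a median of 0.20, where 3.68% of all probes were higher and 4.69% lower. This was Fezf1, a zinc finger gene of the anterior forebrain, at 9.36 ± 0.458 in null and 6.87 ± 0.129 in wildtype control pools (0.45 ± 0.14, limma adjusted p = 0.047). Between null and wildtype heat pools 1 of 13 was higher and 0 lower, with a median of 0.36, where 0.255% of all probes were higher: Mab21l2, which acts in the eye, at 6.30 ± 0.744 in null and 4 ± 0.425 in wildtype heat pools (0.65 ± 0.14, limma adjusted p = 0.032). With heat, 1 of 13 fell in null pools, 1 in heterozygous pools and 2 in wildtype pools, and 0 rose, where 2.64%, 1.57% and 1.79% of all probes fell. Otx1, the close relative of Otx2, fell to 9.08 ± 0.604 in heterozygous heat pools, against 13.3 ± 0.371 in heterozygous control pools (-0.56 ± 0.12, limma adjusted p = 0.018), and to 9.74 ± 1.94 in wildtype heat pools, against 13.7 ± 1.03 in wildtype control pools (-0.51 ± 0.12, limma adjusted p = 0.026). Mab21l2 fell with heat in wildtype pools (-0.54 ± 0.13, limma adjusted p = 0.022), and Nr2f1, an orphan nuclear receptor, in null pools (-0.56 ± 0.16, limma adjusted p = 0.044).

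Of 16 genes of the midbrain and isthmus 13 were tested. Between null and wildtype control pools 0 were higher and 1 lower, where 4.69% of all probes were lower. This was Il17rd, an inhibitor of FGF signalling (-0.74 ± 0.23, limma adjusted p = 0.047), whose other probe did not pass (0.10, limma adjusted p = 0.68). With heat Lmx1a, a LIM homeobox gene, fell in wildtype pools (-0.65 ± 0.15, limma adjusted p = 0.017), as 1 of 13, where 1.79% of all probes fell. Il17rd rose in null pools (0.88 ± 0.24, limma adjusted p = 0.039), as 1 of 13, where 2.88% of all probes rose, and its other probe did not pass (0.38, limma adjusted p = 0.096). Of 17 hindbrain genes 10 were tested. Hoxa2, a Hox gene of the hindbrain, was lower in null than in wildtype control pools, at 2.27 ± 0.52 and 3.59 ± 0.177 (-0.69 ± 0.20, limma adjusted p = 0.039), as 1 of 10 with 0 higher, where 4.69% of all probes were lower. Fst, the activin inhibitor follistatin, rose with heat in wildtype pools (0.63 ± 0.16, limma adjusted p = 0.028), as 1 of 10, where 1.28% of all probes rose. Of 13 genes of anterior signalling 10 were tested and 0 passed between null and wildtype control pools, with a median of 0.11.

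Marker lists of tissues showed what else differed between the null and wildtype control pools, where 4.69% of all probes were lower. Of 9 tested pan-neural genes 1 was lower, Msi1, an RNA-binding protein of neural progenitors (-0.47 ± 0.13, limma adjusted p = 0.031), and their summed level was 52.2 to 59.2 in null and 53.7 to 62.3 in wildtype control pools. Of 6 early neuron genes 1 was lower, Isl1, which also marks heart progenitors (-0.53 ± 0.14, limma adjusted p = 0.030). Of 5 tested endothelial genes 3 were lower: Cldn5 (-1.31 ± 0.28), Cd34 (-1.17 ± 0.27) and Pecam1 (-0.88 ± 0.23), with limma adjusted p of 0.013, 0.017 and 0.024, and the summed level of all 5 was 31.3 to 42.9 in null and 39.2 to 45.5 in wildtype control pools. Of 4 tested genes of primitive red cells 1 was lower, Klf1 (-1.10 ± 0.22, limma adjusted p = 0.011). Between these groups the heart muscle, somite, neural crest, yolk sac and trophoblast lists gave 0 calls, of 5, 6, 4, 7 and 1 tested genes. The part of these tissues in the levels of the brain genes was not tested. With heat, 2 of 6 early neuron and 1 of 9 pan-neural genes fell in heterozygous pools, where 1.57% of all probes fell: the proneural genes Neurog2 (-1.02 ± 0.19, limma adjusted p = 0.0056) and Neurog1 (-0.83 ± 0.19, limma adjusted p = 0.023) and the neural plate gene Zic1 (-0.71 ± 0.18, limma adjusted p = 0.035). In null pools, where 2.88% of all probes rose and 2.64% fell, Msi1 rose as 1 of 9 pan-neural genes (0.67 ± 0.14, limma adjusted p = 0.011), Cldn5 rose as 1 of 5 endothelial genes (1.04 ± 0.30, limma adjusted p = 0.044), and the somite gene Tbx6 fell as 1 of 6 (-0.42 ± 0.12, limma adjusted p = 0.050). In wildtype pools, where 1.79% of all probes fell, Pecam1 fell as 1 of 5 endothelial genes (-0.84 ± 0.23, limma adjusted p = 0.047) and Apoa2 as 1 of 7 yolk sac genes (-1.40 ± 0.35, limma adjusted p = 0.031).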

How the data were processed

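RNA of 23 whole-embryo pools was measured on 1-colour CodeLink arrays, with biotin-labelled cRNA detected by Alexa-647 streptavidin, per the labels. The deposited values are linear intensities, 1 column per pool, over 36227 probes; how the authors corrected and normalized them is not given in the sources used here. Empty cells and the code -9999 were set to missing. A floor per array, its 5th percentile of values above 0 (0.308 to 0.512 on control and 0.0759 to 0.11 on heat arrays), replaced lower values before log2. The median log2 levels of the arrays spanned 0.336, and quantile normalization was learnt on 18702 probes without a missing cell and applied to the others by interpolation. Tested probes had 3 or more values per group and exceeded the 40th percentile on 3 or more arrays.

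Differences were fitted with limma 3.58.1 in R 4.3.3 (6 group means over all 23 pools, eBayes with trend), for 12 comparisons. Correlations were tested by permutation in Python 3.11.15. Gene symbols are those of the platform annotation in GEO, brought up to date with RefSeq: a single symbol belongs to 21615 probes (21487 by gene ID), several to 681 and none to 13931. The fit was tested on simulated data. Members and lists were chosen with earlier results of these data known. Text names all members, up to 3 called genes of a list in a comparison and the nearest 3 genes of a member. Alternatives were other normalizations, filters, weights, covariates, a replicate block by pool letter and leaving out each pool. Pools that share a letter did not deviate together, so letters were not taken as pairs. No tested probe names Trp53, and the targeted gene is not described. The number of arrays limits the precision.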

Additional observations from a re-analysis of the deposited data

Results flagged for a closer look

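Six3 in wildtype heat pool C was at 16.2, below the 17.4 to 17.7 of the other wildtype heat pools, and its gap took 0.835 of the group's range. It was the only outlying pool among 46 groups of 4 values of the member genes, and chance gives about 1 in 20. No difference of heat responses between genotypes passed the test for a member.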

How the results depend on the processing

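The Otx2, Rax and Pax6 differences between null and wildtype control pools kept their sign in all 36 alternatives, at -1.1 to -0.52 (Otx2), 0.16 to 0.73 (Rax) and 0.37 to 0.57 (Pax6). They passed in 26, 28 and 26 of them, with limma adjusted p of 0.00067 to 0.58, 0.0027 to 0.74 and 0.00045 to 0.45. Many of the 36 could not change a sign. Leaving out a pool of another group changes the spread but not these estimates. Taking the probe of lowest mean repeats the main fit, since each member has 1 probe. With the highest array value as a covariate, Otx2 (adjusted p = 0.077) and Pax6 (0.058) did not pass. Nor did Pax6 in values as deposited (0.10) or under limma quantile normalization over all cells (0.056), Rax with empty cells set to the floor (0.051), or Otx2 without the 3 arrays of lowest top value (0.055), an alternative chosen after seeing the data. Member calls summed over null against wildtype were 3, against 5 with array weights, which added Lhx2 and Hesx1 in control pools, and 1 with the array score, Pax6 in heat pools at 0.56 ± 0.14 (adjusted p = 0.033). Leaving out 1 pool gave 0 to 5. All probes called in null against wildtype control were 1838, from 12 with the array score to 6082 with array weights, and 252 to 2235 without 1 pool. In null against wildtype heat they were 123 (1 with the arrays compared alone to 1617 in values as deposited). For heat against control they were 1215 in null (311 with the array score at the lowest), 508 in heterozygous (68 with the arrays compared alone) and 676 in wildtype pools (456 without the 3 arrays of lowest top value), and for the null minus wildtype heat response 222 (5 to 650).

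Member calls for heat against control were 0. They were 1 with empty cells at the floor (Gbx2 in null pools), 1 with array weights (Hesx1), 4 with the highest array value as a covariate (Rax in null and wildtype pools, Lhx2 and En1), 1 with the array score (Six3), 1 without the 3 arrays of lowest top value (Rax) and 0 to 1 without 1 pool. Limma quantile normalization over all cells gave 22, where 19238 to 20158 of all probes passed, as it ranks values over columns whose empty cells are passed over. It reversed heat minus control of En1 (0.68 in null and 0.86 in wildtype pools), Hesx1 (0.49, wildtype), Lhx2 (0.50 and 0.55, null and wildtype), Pax6 (0.40 and 0.34, null and wildtype), Rax (0.77 and 0.69, heterozygous and wildtype) and Six3 (0.43, null). The median of all probes stood at 0.945 in null, 0.854 in heterozygous and 0.897 in wildtype pools there, above each of these values. Differences between heat responses had 0 calls, 1 with empty cells at the floor (Gbx2) and 0 to 1 without 1 pool. Null against heterozygous had 0, and 0 to 1 without 1 pool (Rax at 0.78 ± 0.18 without heterozygous control C). Heterozygous against wildtype had 0 under every alternative run. Gbx2 at the floor was called only because empty cells took the lowest value. Pool letters did not pair the pools: r between deviations of same-letter pools had a median of 0.08 (-0.36 to 0.68, 55 pairs), and 7 of 23 pools correlated best with their own letter. With the replicate block 4 member results passed, against 3 without it. The added result was Pax6 in null minus wildtype heat (0.61 ± 0.14, limma adjusted p = 0.032), a gene already called in control pools. Of 108 results 107 kept their call. The median over all probes moved past 0.1 in null heat minus control and in the null minus wildtype heat response with median centring (-0.108 and -0.104), and in wildtype heat minus control (-0.120), heterozygous minus wildtype heat (0.125) and null minus wildtype heat (0.143) in values as deposited. Depth is not defined for arrays, and Pax2 and Gbx2 lie near the dim end, where empty cells limit what can be compared.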
